A study of Mus musculus with 15 samples.

Results

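The 10 genes described here are markers of resident Kupffer cells: Clec4f, Timd4, Vsig4, Marco, Cd5l, Adgre1, Csf1r, C1qa, C1qb and C1qc. They were taken by name, and the transcripts of each gene were summed, so that the markers make up 10 of the 35548 genes to which the deposited table could be summed. The series is bulk RNA sequencing of mouse liver in 15 libraries, all from mice fed a high-fat diet for 8 weeks. There were 5 Txnip knockout (KO) libraries, 5 libraries of mice that carry the C247S change in TXNIP (C247S KI), and 5 wild-type (WT) libraries. TXNIP, the thioredoxin-interacting protein, is a restraint on glucose uptake, and the C247S change swaps the cysteine by which it holds thioredoxin for a serine. No library was from mice on another diet, so every difference below is between genotype groups under that diet. In the library titles, KO libraries carry numbers from a separate run from those of the C247S KI and WT libraries. What the numbers stand for is not stated. In comparisons with KO, genotype and anything else that goes with those numbers cannot be told apart. How the KO was made, which cells carry it, and the sex and age of the mice are not given in the sources used here, and the labels do not state that 1 library stands for 1 mouse. The p-values therefore measure the spread between libraries.

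Kupffer cells are the macrophages that live in the liver sinusoids, where they take bacteria, ageing red cells and cell debris out of portal blood. They are seeded before birth, renew themselves in place, and depend on signals from the endothelial cells, stellate cells and hepatocytes around them. In mice with diet-induced steatohepatitis they are known to be lost in part and to be joined by macrophages that come from blood monocytes, which at first lack Timd4. In bulk liver RNA, fewer cells of a type and less RNA per cell cannot be told apart.

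The macrophage factor PU.1 binds purine-rich motifs of the ETS family, and PU.1 together with other factors sets the Kupffer cell programme. RefSeq (GRCm38.p6) promoters were at hand for 7 of the 10 markers, and Adgre1, Csf1r and C1qa are named only. The 250 bases before the RefSeq gene start are shown, 5′ to 3′, for 4 of the 7: Clec4f, Marco, Cd5l and C1qc. GENCODE puts the start of 2 of them further upstream, so that 71 bases of the Clec4f window and 151 bases of the C1qc window lie inside the GENCODE gene, and none of the Marco and Cd5l windows do. Capitals mark GAGGAA or GGAAGT on either strand, which overlap in C1qc.
Clec4f (chr6:83656117-83656366, minus strand): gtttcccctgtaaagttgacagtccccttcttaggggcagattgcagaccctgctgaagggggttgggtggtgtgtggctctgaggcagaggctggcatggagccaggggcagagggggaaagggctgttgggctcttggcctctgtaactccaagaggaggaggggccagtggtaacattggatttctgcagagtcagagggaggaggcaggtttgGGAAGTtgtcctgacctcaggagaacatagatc
Marco (chr1:120505025-120505274, minus strand): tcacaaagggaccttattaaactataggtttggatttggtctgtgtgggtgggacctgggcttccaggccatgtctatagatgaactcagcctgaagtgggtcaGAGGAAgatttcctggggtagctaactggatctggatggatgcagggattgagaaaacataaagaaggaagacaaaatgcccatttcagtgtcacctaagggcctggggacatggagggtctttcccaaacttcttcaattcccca
Cd5l (chr3:87357631-87357880, plus strand): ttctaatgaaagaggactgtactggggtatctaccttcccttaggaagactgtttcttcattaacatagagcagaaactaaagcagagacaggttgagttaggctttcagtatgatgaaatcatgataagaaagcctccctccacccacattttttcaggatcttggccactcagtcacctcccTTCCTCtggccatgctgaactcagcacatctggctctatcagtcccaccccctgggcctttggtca
C1qc (chr4:136892915-136893164, minus strand): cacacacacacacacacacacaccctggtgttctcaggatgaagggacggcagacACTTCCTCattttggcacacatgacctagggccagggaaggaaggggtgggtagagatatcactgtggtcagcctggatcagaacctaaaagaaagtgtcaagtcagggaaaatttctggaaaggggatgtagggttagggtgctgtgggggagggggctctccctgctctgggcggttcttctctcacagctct
Of the 7 promoters, 5 held GAGGAA, 5 held GGAAGT and all 7 held at least 1 of them, whereas 23.3%, 19.7% and 36.7% of 32851 promoters of the same length did. TGGGAA, the core of the site of RBPJ, through which Notch signals act, was in 2 of the 7 and in 21.6% of all promoters, on either strand. The direct repeat of AGGTCA with 4 free bases between, to which LXR receptors bind, searched on both strands, was in 0 of the 7 and in 5 of the 32851. Such matches describe letters in a window and are not evidence of binding.

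Totals per library were 18047577 to 23379940 estimated counts, and the 13916 genes that entered the test included all 10 markers. The lowest count of any marker was 16, for Timd4 in C247S KI 4, so no marker passed the filter on low counts through 1 group alone. Txnip was at 70.9, 124, 108, 74.2 and 119 counts-per-million (CPM) in KO libraries, at 168, 280, 99.9, 208 and 205 CPM in C247S KI libraries, and at 180, 196, 320, 218 and 197 CPM in WT libraries. All KO libraries lay below all WT libraries (log2 fold change -1.17, SE 0.24, edgeR adjusted p = 0.00886), with Txnip RNA still measured in each, and C247S KI 3 lay inside the KO range. The first 2 principal components of all genes held 23.6% and 15.6% of the variance. On the second, KO 5 lay at -38.7, the other KO libraries between -9.15 and 13.7, and C247S KI 5 at -35.6. WT 1 was the highest WT library there, at 43.9, with WT 4 next at 30.0. C247S KI 3, at -0.03 on the first and 13.2 on the second, was at the edge of its group. It lay near C247S KI 4, at 11.8 and 8.36, but stood apart from its group when counts were compared library by library. The chi-square over degrees of freedom was 198.5 to 334.4 between C247S KI 3 and the other C247S KI libraries. Between those others it was 49.2 to 93.6. Results without some of these libraries, left out alone or together, stand beside the comparisons.

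All 10 markers were measured in every library, at levels that spanned a wide range. Gene positions below are those of GENCODE on GRCm38. Ranked by level per length (counts over exonic length, scaled to 1 common total in every library), Clec4f came first at a mean of 58.3 over the 15 libraries when all its transcripts were summed. Next came C1qa at 47.8, Cd5l at 41.5, C1qb at 39.3 and C1qc at 33.5. Csf1r followed at 11.8 and Vsig4 at 9.31, and the lowest were Adgre1 at 4.27, Marco at 4.03 and Timd4 at 2.004. With all transcripts Clec4f exceeded C1qa in 13 of the 15 libraries. That place rested on its short processed transcript of 608 bases: with coding transcripts alone, a setting added after the values were seen, Clec4f was at 35.3, behind C1qa, Cd5l and C1qb in mean level and below C1qa in all 15 libraries. C1qb exceeded C1qc in all 15 libraries, and Marco exceeded Timd4 in 14. Cd5l exceeded C1qb in 6 libraries and Adgre1 exceeded Marco in 9, so neither pair of neighbours had a settled order.

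Clec4f, a galactose-binding C-type lectin that in the mouse is made by Kupffer cells (chr6:83644542-83656187), was at 68.6, 35.4, 82.3, 56.6 and 112 CPM in KO libraries, at 43.7, 67.1, 62.8, 27.0 and 51.1 CPM in C247S KI libraries, and at 59.5, 116, 75.6, 44.3 and 70.7 CPM in WT libraries. The KO range covered most of the WT range, and C247S KI 1 and C247S KI 4 lay below every WT library. Its log2 fold change was -0.05 in KO against WT (SE 0.29, 95% interval -0.67 to 0.58, edgeR adjusted p = 0.946) and -0.54 in C247S KI against WT (SE 0.30, adjusted p = 0.563).

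Timd4, a receptor for phosphatidylserine on dying cells that marks Kupffer cells of embryonic origin (chr11:46810800-46844332), was at 1.86, 1.43, 2.66, 1.92 and 3.91 CPM in KO libraries, at 2.66, 2.50, 2.68, 0.899 and 2.21 CPM in C247S KI libraries, and at 4.14, 5.75, 3.81, 1.96 and 3.31 CPM in WT libraries. C247S KI overlapped WT through WT 4 alone, the lowest WT library, and KO overlapped it through WT 4 and KO 5. The log2 fold change was -0.69 in KO against WT (SE 0.32, adjusted p = 0.201) and -0.79 in C247S KI against WT (SE 0.32, adjusted p = 0.458).

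Vsig4, a receptor for complement fragments that catches opsonised bacteria (chrX:96247203-96293438), was at 9.53, 3.56, 8.81, 7.72 and 14.03 CPM in KO libraries, at 7.27, 9.20, 4.28, 2.53 and 7.06 CPM in C247S KI libraries, and at 9.94, 15.5, 9.94, 5.54 and 11.4 CPM in WT libraries. WT 4 lay among the lower libraries of both other groups, and KO 5 was close to the highest WT library. Its log2 fold change was -0.27 in KO against WT (SE 0.34, adjusted p = 0.683) and -0.78 in C247S KI against WT (SE 0.35, adjusted p = 0.485).

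Marco, a class A scavenger receptor for bacteria and particles (chr1:120474538-120505024), was at 3.02, 1.57, 4.91, 4.46 and 4.93 CPM in KO libraries, at 3.40, 1.97, 7.30, 2.47 and 2.59 CPM in C247S KI libraries, and at 7.24, 13.8, 6.90, 4.10 and 6.36 CPM in WT libraries. In KO against WT the groups overlapped through WT 4, and in C247S KI against WT through C247S KI 3, the other 4 C247S KI libraries lying below every WT library. Marco had the most negative fold change of the markers in both, -1.03 in KO against WT (SE 0.38, 95% interval -1.82 to -0.24, adjusted p = 0.106) and -1.13 in C247S KI against WT (SE 0.38, 95% interval -1.92 to -0.33, adjusted p = 0.351). Neither passed the threshold of 0.05. Without C247S KI 3 the fold change in C247S KI against WT was -1.55 (adjusted p = 0.128).

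Cd5l, a secreted scavenger protein that macrophages make under control of LXR (chr3:87357881-87371073), was at 51.1, 23.9, 65.1, 45.6 and 115 CPM in KO libraries, at 32.5, 43.1, 49.4, 14.4 and 33.0 CPM in C247S KI libraries, and at 50.8, 115, 78.1, 37.9 and 58.0 CPM in WT libraries. The highest KO and the highest WT library were level, and in C247S KI all libraries were below all but the lowest WT library. Its log2 fold change was -0.18 in KO against WT (SE 0.37, adjusted p = 0.817), -0.98 in C247S KI against WT (SE 0.38, adjusted p = 0.427) and 0.80 in KO against C247S KI (SE 0.38, 95% interval 0.01 to 1.59, adjusted p = 0.180). Cd5l lies on chromosome 3, as does Txnip, 9.19 Mb from it, and a tie between its values and the Txnip alleles was not tested.

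The 3 chains of C1q, the recognition unit of the classical complement pathway, are coded within 18.7 kb of chromosome 4, C1qb at chr4:136880129-136886187, C1qc at chr4:136889804-136893065 and C1qa at chr4:136895917-136898803, all on the minus strand. C1qa was at 33.0, 15.4, 38.0, 29.3 and 51.1 CPM in KO libraries, at 26.2, 27.2, 26.3, 13.4 and 23.1 CPM in C247S KI libraries, and at 31.0, 52.4, 46.7, 30.1 and 35.2 CPM in WT libraries. Every C247S KI library lay below every WT library, while KO libraries lay from below the WT range to near its top. The C1qa log2 fold change was -0.75 in C247S KI against WT (SE 0.26, 95% interval -1.30 to -0.21, adjusted p = 0.371) and -0.23 in KO against WT (SE 0.26, adjusted p = 0.629).

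C1qb was at 29.2, 16.1, 29.2, 27.1 and 43.5 CPM in KO libraries, at 19.5, 26.4, 27.0, 11.1 and 19.1 CPM in C247S KI libraries, and at 24.6, 47.8, 40.2, 23.7 and 28.2 CPM in WT libraries. C1qc was at 25.4, 12.9, 30.4, 24.5 and 42.8 CPM in KO libraries, at 20.2, 26.1, 21.96, 10.7 and 19.5 CPM in C247S KI libraries, and at 22.1, 44.8, 34.0, 23.1 and 27.9 CPM in WT libraries. For both chains the groups overlapped in each comparison, with C247S KI 4 and KO 2 at the bottom. Their log2 fold changes were -0.68 and -0.63 in C247S KI against WT (adjusted p = 0.438 and 0.484), and -0.18 and -0.16 in KO against WT (adjusted p = 0.723 and 0.767).

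Adgre1, the adhesion receptor known as the F4/80 antigen of mouse macrophages (chr17:57358691-57483527), was at 9.02, 2.40, 8.67, 5.91 and 13.4 CPM in KO libraries, at 6.36, 7.90, 4.68, 2.30 and 6.73 CPM in C247S KI libraries, and at 7.92, 24.9, 8.93, 7.91 and 10.4 CPM in WT libraries. WT 2 stood far above the other WT libraries, and the C247S KI and WT ranges met at 7.90 and 7.91 CPM without crossing. The log2 fold change was -1.10 in C247S KI against WT (SE 0.41, adjusted p = 0.416) and -0.61 in KO against WT (SE 0.40, adjusted p = 0.387).

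Csf1r, the receptor for CSF1 and IL-34 on which macrophages depend for survival, was at 32.3, 14.98, 33.1, 24.3 and 50.1 CPM in KO libraries, at 25.3, 33.3, 20.5, 13.5 and 26.8 CPM in C247S KI libraries, and at 20.6, 59.9, 29.0, 24.2 and 37.6 CPM in WT libraries. The 3 ranges overlapped widely, from C247S KI 4 at the bottom to WT 2 at the top. Its log2 fold change was -0.15 in KO against WT (SE 0.31, adjusted p = 0.816) and -0.52 in C247S KI against WT (SE 0.31, adjusted p = 0.597).

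**Figure D1:**
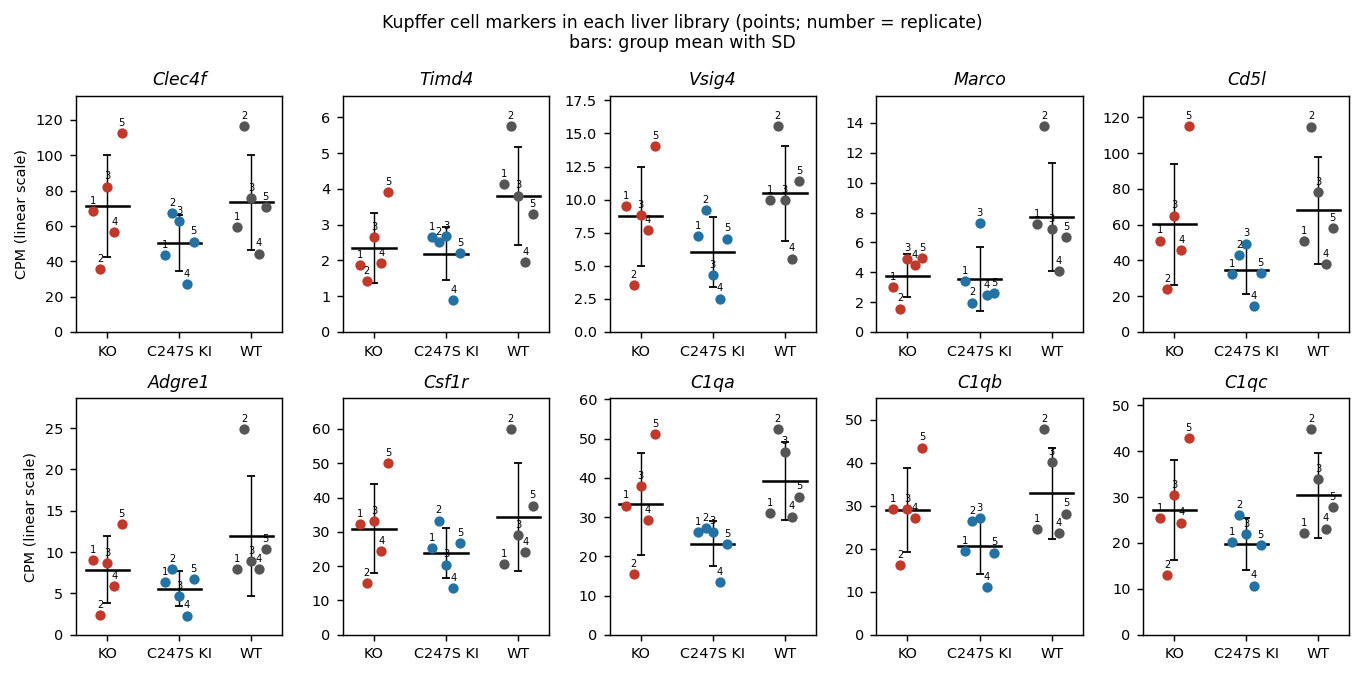
CPM of each marker (linear scale from 0) in every KO, C247S KI and WT library, with the replicate number beside each point and the group mean with SD as bars. The C247S KI mean is below the WT mean in all 10 panels, WT 2 and KO 5 are the highest of their groups in all 10, and KO 2 is the lowest of its group in all 10.

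In KO against WT, 0 of the 10 markers passed an adjusted p of 0.05 in edgeR's quasi-likelihood test, and 6.75% of all tested genes did. DESeq2 and limma-voom also called 0 of the 10 in each of the 3 comparisons. All 10 fold changes were negative, the median was -0.21 on the log2 scale, and the median of all tested genes was -0.01. Those of Clec4f, Cd5l, Csf1r, C1qb and C1qc changed sign when WT 2 was left out. That of Clec4f was also positive without KO 2 (0.14) or without KO 4 (0.04). At an unadjusted p of 0.05, 2 of the 10, Marco and Timd4, were lower, against 12.8% of all genes. No marker had separate KO and WT ranges, which 9.6% of genes had. Exact two-sided permutation tests of single markers gave p from 0.0317 for Marco to 0.849 for Clec4f, and 0.00794 is the smallest that 5 against 5 libraries can give. Without WT 2, 0 markers had an unadjusted p under 0.05 and the median was -0.03, and without KO 5 there were 3 and it was -0.46.

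Between C247S KI and WT, 0 of the 10 markers passed, and 0.0862% of all tested genes did. The 10 fold changes were all negative, with a median of -0.77 on the log2 scale, while the median of all tested genes was 0.00. At an unadjusted p of 0.05, 8 of the 10 were lower, all but Clec4f and Csf1r, against 4.2% of all genes. C1qa and Adgre1 had separate CPM ranges, 2 of 10 against 0.589% of all genes that were lower without overlap. By level per length the ranges of both overlapped, so the separation depended on the measure. There the highest C247S KI and the lowest WT values were 46.2 and 41.8 for C1qa, and 4.34 and 3.44 for Adgre1. The exact two-sided permutation p on log2 CPM was 0.00794 for C1qa and for Adgre1. Over the 10 markers these p-values reached up to 0.214 for Csf1r. The 10 markers varied together from library to library, so the 8 are not separate observations. Without WT 2 the number at an unadjusted p under 0.05 was 2 (median -0.59), without C247S KI 4 it was 4 (median -0.60), and without C247S KI 3 it was 7 (median -0.79). Without WT 4 the number was 9 (median -0.88).

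In KO against C247S KI, 0 of the 10 markers passed, and 10.3% of all tested genes did. All 10 fold changes were positive, with a median of 0.49 and a median of all tested genes of -0.03. Those of Timd4 and Marco changed sign when KO 5 was left out. That of Marco was also negative without KO 3 (-0.01) or without C247S KI 2 (-0.04). At an unadjusted p of 0.05 there was 1 marker, Cd5l, that was higher, against 12.4% of all genes. The others had fold changes between 0.10 for Marco and Timd4 and 0.52 for C1qa and Vsig4, with 95% intervals of -0.71 to 0.91 for Marco, -0.59 to 0.79 for Timd4, -0.03 to 1.06 for C1qa and -0.22 to 1.25 for Vsig4. No marker had separate ranges, against 9.67% of all genes. Without KO 2, 6 markers had an unadjusted p under 0.05 and the median was 0.67, and without KO 5 the number was 0 and the median was 0.26. Without C247S KI 3 the number was 2 and the median was 0.51. Each group served in 2 of the 3 comparisons, so the 3 are not independent of each other. Without WT 1, C247S KI 3 and C247S KI 5, 0 markers passed in any comparison, and the medians were -0.28 in KO against WT, -0.87 in C247S KI against WT and 0.51 in KO against C247S KI.

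**Figure D2:**
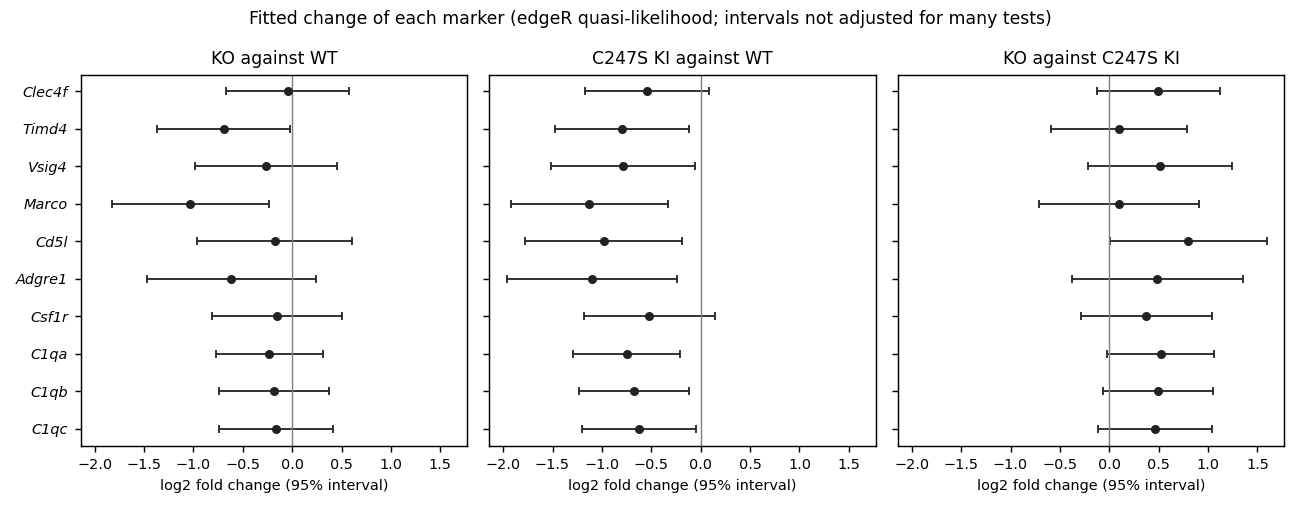
Fitted log2 fold change of each marker with its 95% interval (edgeR, not adjusted for the number of genes) in KO against WT, C247S KI against WT and KO against C247S KI. Marco, at -1.03 and -1.13, is the lowest in both comparisons with WT, and Cd5l, at 0.80, is the highest in KO against C247S KI.

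The summed level of the 10 markers showed how much of the variation lay between libraries of 1 genotype. The sum was 263, 128, 303, 227 and 451 CPM in KO libraries, 187, 245, 227, 98.3 and 191 CPM in C247S KI libraries, and 238, 496, 333, 203 and 289 CPM in WT libraries. The means were 274 ± 118 CPM in KO, 190 ± 56.5 CPM in C247S KI and 312 ± 114 CPM in WT (SD, n = 5 each), and the highest library of a group had 3.53, 2.49 and 2.44 times the lowest. Between 58.2% (Marco) and 87.3% (Csf1r) of a marker's variance in log2 CPM lay within the groups. Over all 15 libraries, the highest value of a marker was 3.903 (C1qa) to 10.8 (Adgre1) times its lowest.

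The same libraries were high or low for nearly every marker. WT 2 was the highest WT library for 10 of the 10 markers and the highest of all 15 libraries for 9, the exception being Cd5l, for which KO 5 was level with it at the top. KO 5 was the highest and KO 2 the lowest KO library for all 10. C247S KI 4 was the lowest C247S KI library for 9 of the 10 and the lowest of all 15 for those 9. Marco was the exception, with its lowest C247S KI value in C247S KI 2 and its lowest of all in KO 2.

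With group means removed, the 45 pairs of markers had Pearson r between 0.428 and 0.983 over the 15 libraries, with a median of 0.875 (Spearman rho 0.332 to 0.982, median 0.804). The points share their library, its depth and its scaling, and the r values are given as a description. C1qa with C1qc (0.983) and Clec4f with Cd5l (0.982) were the closest pairs, and the 9 lowest r values all included Marco, down to 0.428 with Vsig4. Set against the mean of the other 9 markers, r was 0.980 for Cd5l, 0.978 for C1qc, 0.976 for Clec4f, 0.966 for C1qa and 0.949 for C1qb. It was 0.926 for Adgre1, 0.898 for Csf1r, 0.893 for Timd4, 0.878 for Vsig4 and 0.634 for Marco. Leaving out C247S KI 4 and KO 2, the libraries farthest from the median, gave 0.964 for Cd5l, 0.958 for Clec4f and 0.489 for Marco.

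**Figure D3:**
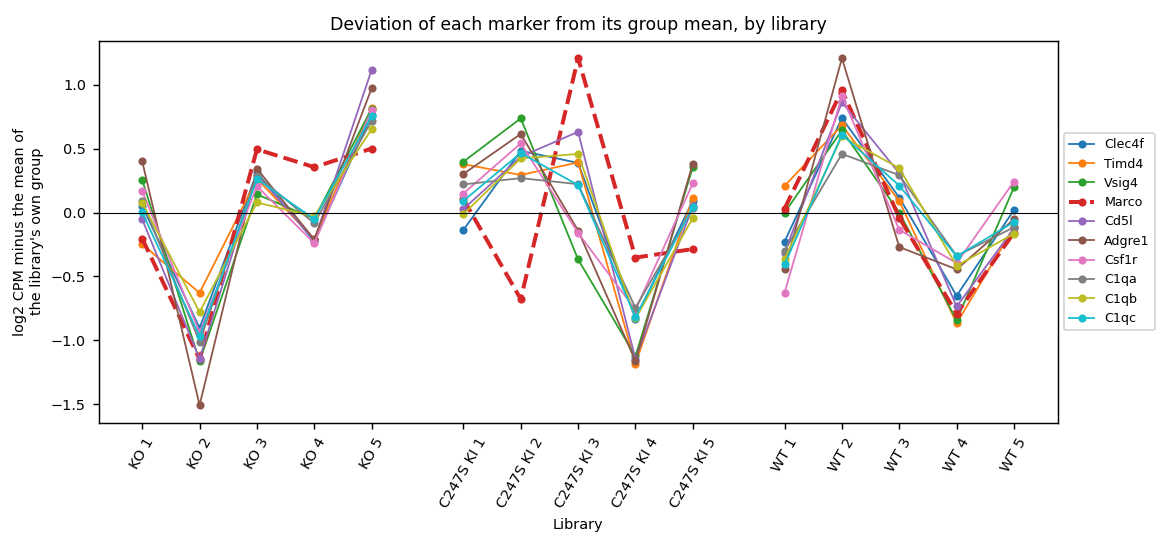
Deviation of each marker's log2 CPM from the mean of its own group in every library, with libraries along the horizontal axis, 1 line per marker and Marco dashed. The lines run together, low in KO 2 and C247S KI 4 and high in KO 5 and WT 2, apart from Marco, which is lowest of the markers in C247S KI 2 and highest in C247S KI 3.

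A further view, added after the values were seen, set each marker against the other 9 in its own library, as log2 CPM less their mean log2 CPM. Clec4f so measured was at 2.29, 2.40, 2.34, 2.14 and 2.26 in KO libraries, at 1.91, 2.36, 2.34, 2.28 and 2.22 in C247S KI libraries, and at 1.97, 1.92, 1.97, 1.86 and 2.01 in WT libraries. All KO libraries were above all WT libraries, with a difference of means of 0.34, and C247S KI 1 was the only C247S KI library within the WT range. Clec4f was the 1 marker of 10 with separate KO and WT ranges on this measure. Its own fold change in KO against WT was -0.05, and the measure also moves with the other markers. Marco (-0.69), Timd4 (-0.32) and Adgre1 (-0.29) were lower in KO on it. Csf1r (0.26), C1qb (0.21), C1qc (0.19), Cd5l (0.14), C1qa (0.09) and Vsig4 (0.08) were higher, as Clec4f was. When set against the mean of the markers, 1.22% of all genes had separate ranges. That share is not a like background. Taking away the markers' mean removes variation that the markers share, but adds that variation to genes that do not share it. How rare the separation of Clec4f is was therefore not tested.

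Marco on the same measure was at -2.67, -2.50, -2.15, -1.90 and -2.72 in KO libraries, at -2.14, -3.21, -1.09, -1.50 and -2.50 in C247S KI libraries, and at -1.39, -1.49, -1.84, -1.92 and -1.83 in WT libraries. KO 4 was the 1 KO library within the WT range, and C247S KI libraries lay below, within and above it. The difference of means was -0.69 in KO against WT, the most negative of the 10 markers, and it was -0.39 in C247S KI against WT.

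**Figure D4:**
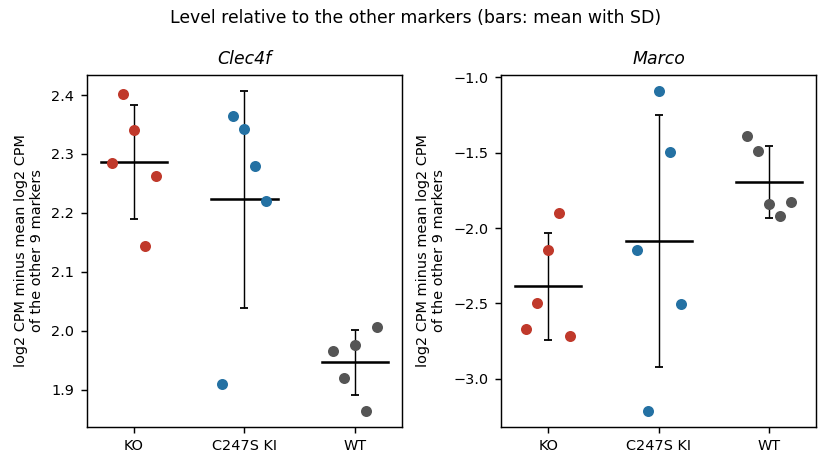
Clec4f and Marco in each library as log2 CPM less the mean log2 CPM of the other 9 markers, in KO, C247S KI and WT, with the group mean and SD as bars. For Clec4f the 5 KO libraries (2.14 to 2.40) lie above the 5 WT libraries (1.86 to 2.01), and for Marco the groups overlap.

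The genes whose library-to-library pattern was most like that of the markers were ranked among 12285 other genes with a mean of at least 1 CPM, with group means removed over the 15 libraries. Sdc3, a syndecan, came first with r = 0.940, then Siglec1, a sialic acid-binding macrophage receptor, with 0.924, and Laptm5, a lysosomal protein of blood cells, with 0.911. Tfpi, an inhibitor of tissue factor (0.903), Cfp, the properdin of the alternative complement pathway (0.901), Cd163, the haptoglobin-haemoglobin receptor (0.895), Mrc1, the mannose receptor (0.894), and Cdc42ep2 (0.889) followed. The median r of all ranked genes was -0.01, the 99th percentile was 0.725, and 5 genes were above 0.9. None of the 8 passed the edgeR threshold in any of the 3 comparisons.

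Among lists of other genes, markers of sinusoidal endothelial cells, which line the vessels in which Kupffer cells sit, had the highest median r with the Kupffer cell markers. All 10 were tested, none was at 0, and the median r was 0.68 (0.318 for Lyve1 to 0.883 for Oit3). The median was 0.66 for scavenger and phagocytic receptors, 0.62 for general macrophage and myeloid genes and 0.51 for other resident Kupffer cell genes. Single genes spread widely in each, from -0.16 to 0.89, from -0.47 to 0.91, and from -0.32 (Slc40a1) to 0.89 (Cd163). The order depended on the measure. With the genes of a list averaged into 1 profile first, r was 0.91, 0.83 and 0.86 for these 3 lists and 0.80 for the endothelial genes. Stab2 and Fcgr2b stood both in the endothelial list and among the scavenger and phagocytic receptors. The summed level of the 10 endothelial genes was 160 to 259 CPM in KO, 152 to 191 CPM in C247S KI and 136 to 315 CPM in WT. The median fold change of these 10 genes was -0.11 in KO against WT, -0.34 in C247S KI against WT and 0.36 in KO against C247S KI, and 9 of the 10 were negative in C247S KI against WT. Their part in the marker values was not tested. In KO against WT, 6 of the 10 endothelial fold changes were negative and 4 were positive. There, 2 of the 10 fell, Lyve1 (-1.41, SE 0.25, adjusted p = 0.00347) and Pecam1 (-0.80, SE 0.14, adjusted p = 0.00347), as did 4.19% of all genes.

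Markers of other cells had lower median r, on either side of 0. It was -0.45 for 8 hepatocyte markers, -0.49 for 7 neutrophil markers, -0.49 for 7 cholangiocyte markers and -0.55 for 6 B cell markers, and it was 0.04 for 9 stellate cell markers, 0.16 for 5 dendritic cell markers and -0.25 for 2 T and NK cell markers. Hepatocyte markers summed to 53640 to 72910 CPM in KO, 73200 to 119700 CPM in C247S KI and 86530 to 103000 CPM in WT. Alb held much of that sum, at a mean of 38230 CPM in KO and 66440 CPM in WT. It was the 1 of the 8 that fell in KO against WT (-0.80, SE 0.21, adjusted p = 0.0294), where 4.19% of all genes fell. Of the 8 hepatocyte fold changes in KO against WT, 4 were positive and 4 negative, with a median of -0.08. Neutrophil markers summed to 19.8 to 198 CPM in KO, 123 to 210 CPM in C247S KI and 67.2 to 237 CPM in WT. Macrophages of the peritoneum or liver capsule, which share several of the 10 markers, were represented by 5 genes that summed to 39.5 to 64.9 CPM in KO, 91.5 to 244 CPM in C247S KI and 72.8 to 136 CPM in WT. Prg4 held much of that sum, at means of 36.4 CPM in KO, 116 CPM in C247S KI and 74.0 CPM in WT. Which cells gave the sum was not tested. Of the 5 genes, Prg4 (-1.02, SE 0.28, adjusted p = 0.0380) and Icam2 (-0.75, SE 0.16, adjusted p = 0.0105) fell in KO against WT. The median r of the 5 with the markers was -0.19, from -0.31 for Icam2 to 0.73 for Cd207. Of the other lists of cell markers, 1 of 9 stellate cell genes (Col3a1) and 1 of 6 B cell genes (Ms4a1) fell in KO against WT, where 4.19% of all genes fell. None of the tested cholangiocyte (7), neutrophil (7), dendritic cell (5) or T and NK cell (2) genes passed there. Genes named in these lists of other cell types were chosen after their values were seen, and what these cells contribute to the marker values was not tested.

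**Figure D5:**
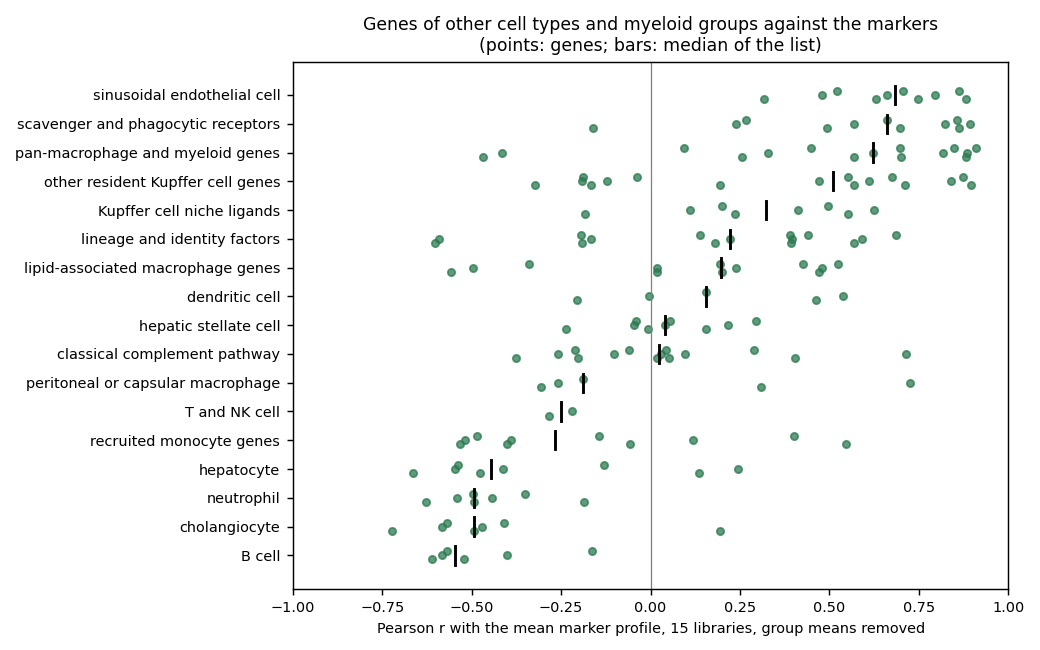
Pearson r of each gene with the mean profile of the 10 Kupffer cell markers over 15 libraries with group means removed, by list, with the median of each list as a bar. Sinusoidal endothelial cell genes have the highest median (0.68), and B cell genes have the lowest (-0.55).

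Of 15 general macrophage and myeloid genes, 4 fell in KO against WT, as did 4.19% of all genes. All 15 fold changes were negative, with a median of -0.42. Cd14, the co-receptor for lipopolysaccharide, was at 2.45 ± 0.66 CPM in KO, 6.28 ± 1.42 CPM in C247S KI and 9.63 ± 4.56 CPM in WT (SD, n = 5 each), and fell in KO against WT (-1.98, SE 0.29, adjusted p = 0.00115) and against C247S KI (-1.36, SE 0.29, adjusted p = 0.00754). Cd53, a leukocyte tetraspanin, fell by 0.71 on the log2 scale (SE 0.17, adjusted p = 0.0181). Ptprc, which codes for the leukocyte phosphatase CD45 (-0.55, SE 0.16, adjusted p = 0.0460), and Fcer1g, the signalling chain of Fc receptors (-0.56, SE 0.16, adjusted p = 0.0462), passed narrowly. The Ptprc call was lost in 13 of 19 other settings, with adjusted p up to 0.135 without WT 4, and the Cd53 call was lost without KO 2 (0.0553) or without KO 4 (0.0509). The median of the 15 was -0.36 in C247S KI against WT, and 0 of them passed there.

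Among 16 other genes of resident Kupffer cells, 1 rose and 1 fell in KO against WT, with a median of -0.15, whereas 2.56% of all genes rose and 4.19% fell. Cd38, an enzyme that consumes NAD, was at 5.44 ± 1.70 CPM in KO, 8.12 ± 1.42 CPM in C247S KI and 9.73 ± 2.58 CPM in WT (KO against WT -0.84, SE 0.21, adjusted p = 0.0274). C6, a component of the membrane attack complex that hepatocytes also make, rose, at 194 ± 41.5 CPM in KO, 183 ± 99.3 CPM in C247S KI and 85.3 ± 23.4 CPM in WT (KO against WT 1.19, SE 0.32, adjusted p = 0.0324). Both calls were close to the threshold. Leaving out KO 1, KO 2, KO 4, WT 2 or WT 3 gave Cd38 fold changes of -0.79 to -0.70 with adjusted p between 0.0635 and 0.0796. Leaving out 1 of KO 2 to KO 5 or WT 2 to WT 4 gave C6 fold changes of 1.11 to 1.22 with adjusted p between 0.0550 and 0.0790. In KO against C247S KI, the ficolin gene Fcna rose (1.05, SE 0.24, adjusted p = 0.0103) and the phospholipid transfer gene Pltp fell (-1.60, SE 0.35, adjusted p = 0.00835). The median of the 16 was -0.22 in C247S KI against WT, where 0 passed.

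Of 15 factors of macrophage lineage and Kupffer cell identity, 2 fell in KO against WT, as did 4.19% of all genes. Id1, an inhibitor of basic helix-loop-helix factors, was at 3.78 ± 0.77 CPM in KO, 6.17 ± 0.61 CPM in C247S KI and 6.73 ± 1.74 CPM in WT (KO against WT -0.83, SE 0.18, adjusted p = 0.0118). Irf8, a factor of the monocyte and macrophage lineage, fell by 0.47 on the log2 scale (SE 0.13, adjusted p = 0.0439), a call lost in 15 of 19 other settings, with adjusted p up to 0.112 without KO 2. The median of the 15 was 0.06 in KO against WT and -0.04 in C247S KI against WT. Of the niche ligands, 8 of 9 were tested, and 0 passed in either comparison with WT (medians -0.38 in KO against WT and -0.10 in C247S KI against WT). Csf1, a ligand of Csf1r, was at 5.80 ± 0.40 CPM in KO, 9.74 ± 1.80 CPM in C247S KI and 8.04 ± 1.09 CPM in WT, and fell in KO against C247S KI (-0.75, SE 0.14, adjusted p = 0.00304).

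Of 12 genes of lipid-associated macrophages, the cells that take up lipid in fatty liver, 5 fell in KO against WT, as did 4.19% of all genes, and the median was -0.75. Cd36, a fatty acid and lipoprotein receptor that hepatocytes also make, was at 18.2 to 39.6 CPM in KO, 42.9 to 161 CPM in C247S KI and 79.5 to 183 CPM in WT (KO against WT -1.99, SE 0.33, adjusted p = 0.00237). Gpnmb, a transmembrane glycoprotein of lipid-laden macrophages, was at 0.371 ± 0.186 CPM in KO, 1.46 ± 0.96 CPM in C247S KI and 2.43 ± 1.32 CPM in WT (-2.70, SE 0.50, adjusted p = 0.00470). Trem2, a lipid-sensing receptor, was at 1.71 ± 0.31 CPM in KO, 2.78 ± 1.01 CPM in C247S KI and 3.70 ± 1.01 CPM in WT (-1.11, SE 0.25, adjusted p = 0.0152), a call lost when only protein-coding transcripts were summed (adjusted p = 0.234). Cd9 and Lgals3 were the other two that fell. Fcer1g, Fcna, Pltp, Cd9 and Lgals3 are named here after their values were seen. The list's median r with the Kupffer cell markers was 0.20, and its median was -0.14 in C247S KI against WT, where 0 of the 12 passed.

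Among genes of recruited monocytes, 1 of 10 fell in KO against WT, where 4.19% of all genes fell: Cx3cr1, the fractalkine receptor, at 0.568 ± 0.172 CPM in KO, 1.32 ± 0.59 CPM in C247S KI and 1.55 ± 0.41 CPM in WT (-1.44, SE 0.32, adjusted p = 0.0134). The median of that list was -0.24 in KO against WT and -0.14 in C247S KI against WT. Of 11 scavenger and phagocytic receptors, Cd36 alone passed in KO against WT, the median was -0.08, and the list's median r with the markers was 0.66. Of 14 genes of the classical complement pathway and its regulators, which act with C1q, 1 fell in KO against WT: Cfi, the protease that cleaves C3b and is made largely by hepatocytes, at 408 ± 30.0 CPM in KO, 668 ± 142 CPM in C247S KI and 645 ± 95.2 CPM in WT (-0.66, SE 0.15, adjusted p = 0.0155). The complement list had a median of -0.33 in KO against WT and 0.07 in C247S KI against WT, and a median r with the markers of 0.02. In C247S KI against WT none of the genes in these 3 lists passed, and the scavenger receptors had a median of -0.20.

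The markers differed in how their counts were spread over transcripts. Timd4, Cd5l, C1qa and C1qb had a single transcript in the table, Marco had all its counts on 1 of 2, and the main transcript held 99.9% of the Vsig4 counts, 99.7% of the C1qc counts and 94.7% of the Adgre1 counts. In Clec4f, a transcript annotated as processed held 14.7% of the counts in KO, 13.4% in C247S KI and 13.3% in WT. In Csf1r, the share of counts given to the longer coding transcript Csf1r-202 was 12.0%, 69.1%, 21.1%, 42.0% and 22.3% in KO libraries, 30.1%, 19.8%, 38.7%, 36.7% and 15.3% in C247S KI libraries, and 5.28%, 6.86%, 36.2%, 13.6% and 6.35% in WT libraries. WT 3 lay among the other groups and the other WT libraries lay at the low end. Reads that fit both Csf1r transcripts had been divided between them by estimation before deposit.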

How the data were processed

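Bulk RNA was sequenced from 15 mouse liver libraries, grouped by their titles into KO, C247S KI and WT (5 each). The authors deposited whole-number estimated counts of each transcript, made with kallisto 0.50.1 after Trimmomatic 0.39, per the submitters' processing notes, which also name DESeq2 and mm10. Their transcript set is not stated there. Estimated counts divide reads that fit several transcripts.

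Transcripts were matched to GENCODE M21 (GRCm38) by identifier without version (114331 of 115911, 98.64%). Unmatched ones held 0.366% to 0.459% of counts and were left out. Counts were summed per gene and filtered (filterByExpr, minimum count 10, total 15). All 15 libraries entered 1 edgeR 4.0.16 fit (R 4.3.3, TMM, quasi-likelihood test, Benjamini-Hochberg adjusted p below 0.05 over 13916 genes). The SE was the log2 fold change over the root of F, and the 95% intervals use that SE. CPM were scaled by TMM, with a prior count of 2 for log2 CPM. The markers and gene lists were chosen with earlier results of these data known. Named genes were the 10 markers, Txnip, up to 3 called genes with the lowest p per list of macrophage genes, and the 8 genes most like the markers. Alternatives were DESeq2 1.42.0, limma-voom (limma 3.58.1), RLE factors, no filter, a minimum mean count of 50, a fit of the 2 groups, a replicate block, protein-coding transcripts alone, and leaving out libraries. The procedure was tested on simulated counts. No library was a copy of another of its group (chi-square over degrees of freedom between 20.9 and 334 in 30 pairs).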

Additional observations from a re-analysis of the deposited data

Results flagged for a closer look

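Of 33 gene and group pairs examined for a library far from the other 4, which chance alone would single out in about 1 of 20 groups, 4 stood out. Timd4 was lowest in C247S KI 4, at 0.899 CPM, with the next library at 2.21 CPM and the highest at 2.68 CPM. Marco was highest in C247S KI 3, at 7.30 CPM, with the next at 3.40 CPM and the lowest at 1.97 CPM. Adgre1 was highest in WT 2, at 24.9 CPM, with the next at 10.4 CPM and the lowest at 7.91 CPM. Txnip was highest in WT 3, at 320 CPM, with the next at 218 CPM and the lowest at 180 CPM. C247S KI 4 and WT 2 were also the lowest and the highest of their groups for 9 and 10 of the 10 markers.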

How the results depend on the processing

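In each of the 3 comparisons, 0 of the 10 markers passed the adjusted threshold under all 19 other settings. Of 570 fold changes of single markers under these settings, 555 kept their sign and 15 changed it, none of them past the threshold, and the lowest adjusted p was 0.0577 (Marco, KO against WT, DESeq2). All sign changes came from leaving out 1 library. In KO against WT the fold changes then ranged from -0.26 to 0.20 for Clec4f, -0.54 to 0.11 for Cd5l, -0.38 to 0.17 for Csf1r, -0.37 to 0.0051 for C1qb and -0.38 to 0.035 for C1qc, with the highest value without WT 2 in each. In KO against C247S KI they ranged from -0.15 to 0.25 for Timd4 and from -0.044 to 0.52 for Marco. The cause was not tested.

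Counts over all genes moved more. In KO against WT, 939 genes passed, 1493 with DESeq2, 1542 without WT 1, C247S KI 3 and C247S KI 5 (a setting chosen after seeing the data), and 521 (without KO 2) to 928 (without WT 1) with 1 library left out. In C247S KI against WT, 12 genes passed, 65 with DESeq2, 20 with no count filter, 6 in a fit of the 2 groups, and 4 (without WT 3) to 24 (without C247S KI 4) with 1 library left out. In KO against C247S KI, 1427 passed, and 784 (without KO 2) to 2280 (without C247S KI 3) with 1 library left out.

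The labels name no pairing. Between libraries with the same replicate number, deviations from the group means had r between -0.141 and 0.381, over 0.1 in 4 of 15 pairs. The highest was for C247S KI 5 with WT 5. Libraries of unlike number were not set beside these, so the check cannot tell whether the numbers pair libraries. With the replicate number as a block, 0 markers passed in each comparison, the medians were -0.18, -0.79 and 0.54 in KO against WT, C247S KI against WT and KO against C247S KI, and 6 genes passed in C247S KI against WT. Of the other genes named in KO against WT, C6 (1.12, adjusted p = 0.0606), Irf8 (-0.46, 0.0534) and Ptprc (-0.56, 0.0690) no longer passed with the block. There were 5 libraries a group, and the summed markers differed by 2.44 to 3.53 times within a group. The 95% intervals give the range of fold changes that each marker's values allow. They are not adjusted for the number of genes and are not limits of detection.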
